A study of Mus musculus with 11 samples.

Results

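The baseline transcriptome of untreated, cultured mouse beta cells was described from the 4 libraries that the sample labels give as control, untreated beta cells, out of 11 RNA-seq libraries in the series. All came from 12-week-old male C57BL/6 mice, and the study bought its mice as C57BL/6JRj. The 4 control libraries, replicates 1 to 4, hold beta cells sorted by FACS from islets kept in culture without IFNγ. The other 7 libraries hold beta cells of islets exposed for 20 h to 50 pg/mL of IFNγ and sorted by surface PD-L1, and they were left out, so that no treatment was compared with another. In the study's gating, beta cells are the EpCam+ cells with little CD24 on their surface that are also positive for CD71. The study's methods describe every n as a biologically independent sample, and its differential expression model included batch. Its RNA-seq figures that set control beside PD-L1-sorted beta cells give a smaller n than the 4 control libraries used here. The labels list no library of treated cells low in PD-L1 for replicate 1. The sources used here do not say how many animals each replicate pools, so a spread between these libraries can be biological or technical.

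Beta cells are the insulin-producing cells of the pancreatic islet. They make proinsulin in the endoplasmic reticulum, cut it with prohormone convertases in dense-core granules packed with zinc and granins, and release it when glucose metabolism closes ATP-sensitive potassium channels and calcium enters through voltage-gated channels. A small set of homeodomain and basic leucine zipper transcription factors keeps this programme on. Interferons act on almost every cell through receptors and JAK and STAT proteins, and switch on antiviral effectors and the machinery that shows peptides to T cells.

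The 4 libraries totalled 10965898 to 15810817 expected counts. Levels of different genes are given as TPM, counts divided by the effective transcript length and scaled to the same total over all genes of a library. Values of 1 gene or gene group across libraries are given as CPM, counts scaled by library size with TMM factors, which are not divided by length. A gene counts as detected here at 1 TPM or more in each of the 4 libraries. No 2 libraries agree within sampling noise (chi-square per degree of freedom 12.7 to 112 over the 6 pairs), so none was taken as a copy of another. Separate libraries of the same RNA can also differ by more than this noise, so the values cannot tell technical repeats from separate samples. Replicate 1 stood apart in the makeup of its reads. Mitochondrial genes took 13.3% of its counts and 7.12%, 9.0% and 7.87% in replicates 2 to 4, and nuclear protein-coding genes took 32.7% of its TPM against 57.6%, 49.8% and 57.3%. Short RNAs weigh heavily in TPM. The class that holds 7SL and 7SK RNA took 20.6%, 13.4%, 16.9% and 8.43% of the TPM but 2.22%, 1.07%, 1.29% and 0.60% of the counts, so shares of the TPM of nuclear coding genes alone are given as well. In the first principal component of log2 CPM, with 74.6% of the variance, replicate 1 was at 60.3 and the other libraries between -34.2 and 3.72. The genes that the results turn on are therefore given library by library, and means over the 4 include replicate 1.

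The label was checked first. All 4 beta cell markers were detected in every library. In replicates 1 to 4 Ins2 stood at 67551, 183867, 129835 and 185693 TPM. Ins1, the other insulin gene of the mouse, stood at 10673, 25595, 19654 and 28068 TPM. Slc2a2, the glucose transporter GLUT2, stood at 147, 319.6, 229 and 210.3 TPM. Pdx1, the homeodomain factor that activates the insulin genes, stood at 47.1, 90.6, 98.0 and 77.1 TPM. Replicate 1 was the lowest library for each of these markers, in TPM and also in CPM. Of the genes behind the sort, Epcam was at 87.3 ± 30.9 TPM (SD, n = 4), Tfrc, which encodes CD71, at 68.0 ± 7.49 TPM and Cd24a at 3.97 ± 1.94 TPM.

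Insulin dominated the messages of these cells. Ins1 and Ins2 together made up 7.82%, 20.9%, 14.9% and 21.4% of all TPM, a mean of 16.3% ± 6.35 (SD, n = 4), and 24.0%, 36.4%, 30.0% and 37.3% of the TPM of nuclear protein-coding genes, a mean of 31.9% ± 6.22. The share was lowest in replicate 1 on both scales, and without that library the mean of all TPM was 19.1%. As a share of counts, the insulin genes took 3.28%, 6.36%, 5.09% and 6.43%, each within 0.0145 percentage points by a 95% Wilson interval that covers counting error only. The effective length of Ins2 was 213.45 to 258.97 bases and that of Ins1 811.36 to 856.31 bases. Ins2 stood 1.74 to 2.00 times above Ins1 in counts and, once the counts were divided by these lengths, 6.33 to 7.18 times above it in TPM. Ins1 and Ins2 are near copies of each other, so the division of their shared reads by RSEM is uncertain.

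Iapp, the amyloid peptide that beta cells release with insulin, was the next most abundant coding gene after Ins2, with 31435, 41601, 34752 and 34889 TPM. It varied less between libraries than the insulins, with a coefficient of variation (CV, the SD as a percent of the mean) of 13.1% in CPM against 26.4% for Ins2 and 25.9% for Ins1. Its direction depends on the scale, since replicate 1 was its lowest library in TPM and its highest in CPM, with 27014, 25547, 21468 and 20644 CPM. Relative to the insulin TPM of the same library Iapp was highest in replicate 1, at 40.2%, and at 19.9%, 23.2% and 16.3% in the others. Ucn3, a marker of mature beta cells that signals to delta cells, was at 259 ± 92.3 TPM. Of the 12 genes on the list of insulin genes and co-secreted peptides 6 were detected. The others of them were Npy, with only 10, 5, 19 and 6 counts, and Spp1, which the study used as a duct marker. The gut and neural peptides Nmb, Cartpt, Cck and Gal had mean levels under 1 TPM. Adcyap1 and Vip had 0 counts in all 4 libraries, which allows up to 3 counts per library or 0.184 to 0.268 CPM.

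The genes of these peptides lie on different chromosomes of GRCm38: Ins2 on 7 at 142678656-142743381 (minus strand), Iapp on 6 at 142298423-142303961 (plus strand) and Ins1 on 19 at 52264297-52265476 (plus strand). These are annotated spans, and that of Ins2 is far longer than its transcript length of 462.18 to 463.82 bases in these libraries. Iapp and Ins1 are the most abundant coding messages after Ins2, whose promoter was not among those available and is not shown. The 250 bases before the RefSeq start of Ins1 (GRCm38.p6, chr19:52264047-52264296, plus strand) and of Iapp (chr6:142298175-142298424, plus strand) are shown, with matches to the E box CANNTG in capitals.
Ins1: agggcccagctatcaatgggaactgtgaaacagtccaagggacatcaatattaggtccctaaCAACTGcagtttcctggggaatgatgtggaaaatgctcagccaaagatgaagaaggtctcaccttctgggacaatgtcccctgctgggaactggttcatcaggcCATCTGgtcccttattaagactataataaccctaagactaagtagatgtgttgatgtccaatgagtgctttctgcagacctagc
Iapp: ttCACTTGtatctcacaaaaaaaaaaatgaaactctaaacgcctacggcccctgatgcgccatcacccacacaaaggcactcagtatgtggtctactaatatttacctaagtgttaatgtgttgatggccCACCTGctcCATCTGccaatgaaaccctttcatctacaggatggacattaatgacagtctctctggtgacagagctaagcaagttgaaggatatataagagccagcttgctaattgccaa
The E box is a letter pattern that basic helix-loop-helix factors such as NEUROD1 are known to bind. It matched at 2 places before Ins1 and at 3 before Iapp, and 66.1% of 27018 mouse promoters of this length hold it on either strand. The TATA box pattern TATAAA had no match in either window, and neither had GGGCGG, the letters that SP1 binds. The cAMP response element TGACGTCA, the homeodomain pattern TAATTA and the STAT pattern TTCNNNGAA had none either. TTTCNNTTT matched once before Iapp, and no match overlapped one of another motif. Among the 20 of the 25 most abundant genes that have a promoter in the table, 14 (70.0%) hold the E box and 10 (50.0%) hold GGGCGG, against 32.9% of all promoters for the latter.

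Behind the peptides stood granule, translation and chaperone genes. In order of mean TPM the 25 most abundant nuclear protein-coding genes were Ins2, Iapp, Ins1, Chga, Eef1a1, Cpe, Scg2, Tpt1, Mt1, G6pc2, Cd164, Rpl41, Rpl10, Gcg, Ftl1, Ubb, Scg3, Hspa8, Rps24, Ppy, Resp18, Ero1lb, Hsp90aa1, Pcsk2 and Acly. Mean levels fell steeply, from 20998 TPM for Ins1 to 2756 TPM for Chga and 556 TPM for Acly. Ins2, Iapp, Ins1, Chga and Eef1a1 were the 5 genes at 1000 TPM or more in every library. Besides hormones and granule proteins the 25 hold genes of protein synthesis (Eef1a1, Tpt1, Rpl41, Rpl10 and Rps24) and of folding (Hspa8 and Hsp90aa1), while Mt1 and Ftl1 bind metals and Acly makes acetyl-CoA in the cytosol. The 10 most abundant coding genes of a library held 35.5%, 45.9%, 39.4% and 45.5% of its coding TPM, and the top 100 held 43.3% to 53.5%. The order was stable at its head. In every library 8 genes were in the top 10, 15 in the top 25 and 73 in the top 100. Ranked by CPM, which favours long messages, 13 of the 25 genes stayed in the top 25.

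**Figure D1:**
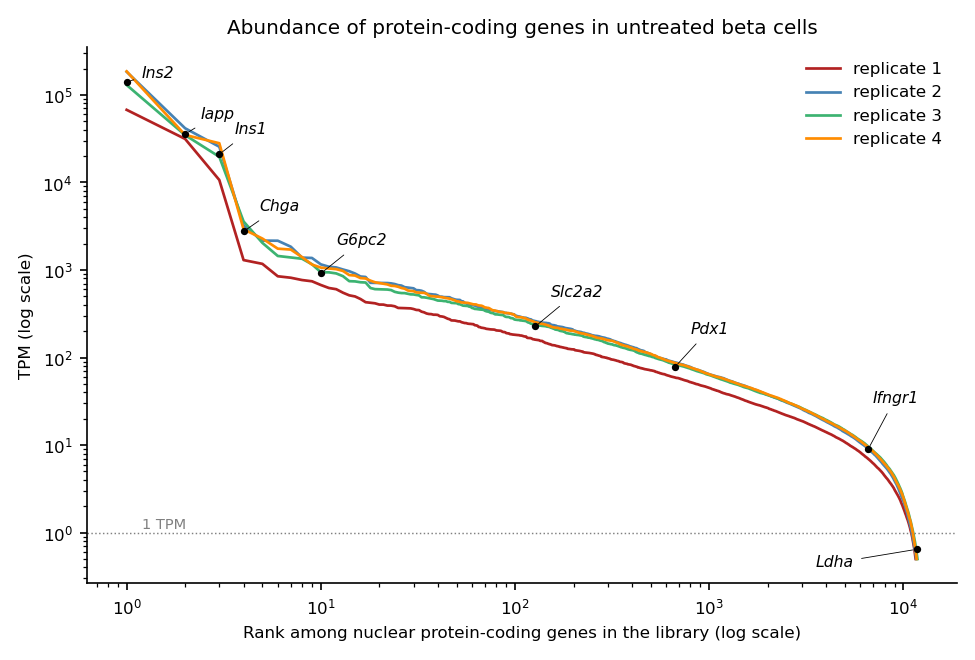
TPM (log scale) of nuclear protein-coding genes against their rank in each of the 4 untreated libraries (log scale), 1 line per library, with black points at the mean TPM and rank of named genes. The mean level drops from 20998 TPM for Ins1 to 2756 TPM for Chga, the next gene, and the line of replicate 1 runs below the other lines over most of the range.

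Of 21884 nuclear protein-coding genes, 10980 to 11250 reached 1 TPM in a library and 10417 did so in all 4. At 10 TPM the number in all 4 libraries was 4909, at 100 TPM 271 and at 1000 TPM 5. Sorted by what they encode, the 100 most abundant coding genes held 28 ribosomal proteins with 2.37% of the coding TPM, 8 translation factors with 1.08%, 9 chaperones and disulfide enzymes with 0.834%, 11 granule and processing proteins with 1.91%, 5 RNA-binding proteins with 0.385% and 5 hormones and co-secreted peptides with 39.7%. Ribosomal protein genes as a whole were even, with 4.53%, 3.98%, 4.16% and 3.83% of the coding TPM in replicates 1 to 4 over 79 detected genes, although reads of these genes can be shared with processed copies in the genome. The other 34 of the 100 genes fell in none of these classes. Among them Il1r1, the receptor of the cytokine interleukin 1, ranked 85th with 190.5, 347, 271 and 322 TPM. Peg3, an imprinted gene, ranked 54th with 385, 362, 420 and 350 TPM and was highest in replicate 3 in TPM and in replicate 1 in CPM. Hadh, a mitochondrial fatty acid enzyme that restrains insulin release, ranked 92nd with 155, 338, 294 and 287.5 TPM.

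Among the genes that process prohormones all 15 were detected. The highest was Cpe, the carboxypeptidase that trims basic residues, with 768, 2166, 1344 and 1712 TPM. Of the convertases that cut proinsulin, Pcsk2 had 368, 691, 563 and 643 TPM. Pcsk1 had 121, 257, 200 and 224 TPM, below Pcsk2 in each library. Replicate 1 was the lowest library for all 3 genes. Ero1lb, a beta cell oxidoreductase that helps form the disulfide bonds of insulin, reached 569.9 ± 123 TPM, Scg5, the chaperone of the Pcsk2 product, 389 ± 77.1 TPM, and Pam, which amidates peptides such as IAPP, 273 ± 92.6 TPM. The lowest of the list was Qpct at 2.45 TPM.

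All 20 genes of granule proteins were detected. The granins led them. Chga, chromogranin A, had 1298, 3221, 3585 and 2919 TPM. Scg2, secretogranin II, had 848, 1847, 1447 and 1753 TPM. Scg3 was at 677 ± 235 TPM and Chgb at 379 ± 125 TPM. Replicate 1 was the lowest library for each of these granins, in CPM too. Slc30a8, the zinc transporter of the insulin granule, was even across libraries, with 765, 830.3, 763 and 736 CPM and a CV of 5.18%. Ptprn (IA-2) and Ptprn2 (IA-2β), both autoantigens of type 1 diabetes, stood at 239 ± 62.6 and 190.4 ± 47.0 TPM. Vgf, a granin-like neuropeptide precursor, was lower and less even, with 12.5, 48.1, 65.6 and 32.3 CPM and a CV of 57.1%. The least abundant members were Slc18a2, the vesicular monoamine transporter, at 1.98 ± 0.253 TPM and Rbp4 at 5.88 ± 3.87 TPM. Of the 15 genes of the exocytosis machinery 14 were detected, the highest being Cplx2 at 101 ± 25.9 TPM, followed by Cadps and Snap25, and Doc2b fell short with 0.684 TPM. The summed CPM of this machinery was 2278, 2206, 2311 and 2285 in replicates 1 to 4, a CV of 1.97% and the lowest of all 35 lists on this scale. In coding TPM its sum had a CV of 14.7%, above that of the processing genes at 8.29%. Its members varied more than their sum, since Snap25 and Rims2 were highest in replicate 1 and Rab3a and Nsf lowest there.

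The glucose list had 19 of 19 genes detected. G6pc2, the glucose-6-phosphatase of islets, led the list with 514, 1159, 941 and 1041 TPM, and the next were the glycolytic genes Aldoa at 319, Gapdh at 304 and Pkm at 262 TPM. Slc2a2 was at 226 ± 71.3 TPM and Slc2a1, the GLUT1 transporter, at 4.01 ± 1.36 TPM. Ucp2, an uncoupling protein of the mitochondrial membrane, reached 150 ± 38.4 TPM. The mitochondrial enzymes Pcx, Gpd2 and Glud1 were at 30.0, 43.2 and 47.9 TPM.

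Genes known to be kept off in beta cells were close to silent. Of 14 such disallowed genes 11 were under 1 TPM in all 4 libraries and 1, the catalase gene Cat, was detected, at 2.47 ± 0.528 TPM. Ldha, lactate dehydrogenase, had 0, 18, 4 and 16 counts in replicates 1 to 4 and a mean of 0.646 TPM. Slc16a1, the lactate transporter MCT1, had 0, 4, 4 and 2 counts. Hk1, a hexokinase of high glucose affinity, had 0, 5, 8 and 4 counts. Acot7, Hk2, Mgst1 and Pdgfra had 0 counts in each library. Ldha and Smad3 reached 1 TPM in some of the libraries, Smad3 with a mean of 0.993 TPM.

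Both parts of the ATP-sensitive potassium channel were present. Abcc8, the sulfonylurea receptor, had 174, 169, 283 and 201 TPM. Kcnj11, the pore, had 60.0, 64.5, 81.1 and 67.4 TPM. Both were highest in replicate 3, and replicate 1 lay within the other libraries for Abcc8 and just below them for Kcnj11. Of 12 genes for calcium channels and pumps 9 were detected, led by the pump genes Atp2a2 and Atp2a3 at 464 and 189.9 TPM. Among the pore-forming subunits Cacna1d (Cav1.3) was at 41.7 ± 6.38 TPM, Cacna1a at 30.6 ± 10.4 TPM and Cacna1c (Cav1.2) at 22.6 ± 6.35 TPM. Neighbours in this order overlap within their SDs across libraries, but within each library the order in TPM was the same. In CPM all 3 were highest in replicate 1, Cacna1d with 332, 194, 253 and 209.8 CPM. Cacna1h and Cacna1e were under 1 TPM and Ryr2 had 0 counts. Of 12 other potassium channel genes 8 were detected, with Kcnk16 (TALK-1), a background channel of islets, highest at 40.2, 89.2, 94.5 and 92.7 TPM. Kcnma1, the large-conductance calcium-activated channel, was among the most even channel genes, with 38.6 ± 4.69 TPM and a CV of 3.91% in CPM. Of 8 sodium and cation channel genes 5 were detected, with Nalcn at 14.5, Scn9a at 12.3 and Scn8a at 10.4 TPM. Scn3b and Scn2a were under 1 TPM. Of 9 TRP and chloride channel genes 7 were detected, the highest being Clcn3 and Trpm5 with 42.1 and 30.6 TPM.

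Of 17 receptor genes 15 were detected. Glp1r, the target of incretin drugs, led with 135, 285, 261 and 292 TPM, followed by the receptors of prolactin and growth hormone, Prlr at 168 ± 47.7 and Ghr at 142 ± 19.3 TPM. Igf1r stood at 62.3 ± 19.6 TPM and the insulin receptor gene Insr lower, at 12 ± 2.0 TPM. Ffar1, the fatty acid receptor GPR40, was at 49.1 ± 11.8 TPM. Gipr, the receptor of the other incretin, was lower and less even than Glp1r, with 89.0, 25.1, 64.0 and 32.0 CPM, high in replicates 1 and 3 and low in 2 and 4. Ghr was the most even, with 403, 445, 404 and 413 CPM and a CV of 4.71%. Of the somatostatin receptors Sstr3 was at 29.6 ± 5.92 TPM and Sstr5 at 0.0333 TPM, and Lepr had 0 counts.

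**Figure D2:**
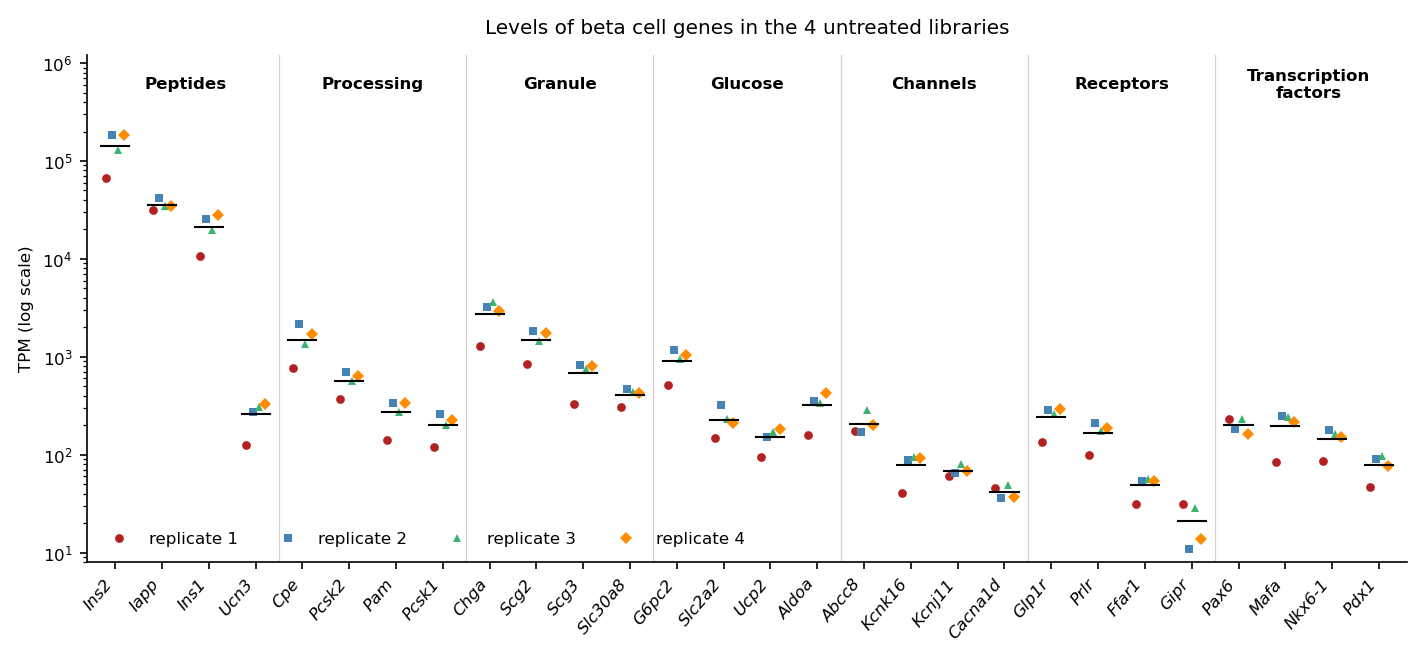
Levels in TPM (log scale) of 28 beta cell genes grouped by role, with 1 symbol per untreated library and a bar at the mean of the 4. Insulin genes and Iapp lie far above the rest, replicate 1 is the lowest symbol for most genes. Abcc8, Cacna1d, Gipr and Pax6 are lowest in another library.

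Transcription factors of beta cells were present at intermediate levels. Of 25 factors 23 were detected, with a summed CPM of 4464, 4176, 4287 and 3972 in replicates 1 to 4, a CV of 4.88%, against 17.7% for the granule proteins and 18.4% for the processing genes. In coding TPM, which divides by length and leaves out other RNAs, the order was turned round, with a CV of 20.9% for the factors, 12.2% for the granule proteins and 8.29% for the processing genes. The highest were Pax6 at 202 ± 34.9, Mafa at 198 ± 77.4, Neurod1 at 172 ± 14.9, Nkx6-1 at 144 ± 40.2 and Mlxipl, the glucose-responsive factor ChREBP, at 142 ± 56.8 TPM. They did not vary alike. Mafa, an activator of the insulin genes in mature beta cells, had 299.6, 638, 599.8 and 545 CPM, lowest in replicate 1. Mlxipl had 543, 186, 363 and 221 CPM, highest in replicate 1 and next in replicate 3. Nkx2-2 was level, with 125, 125, 143 and 136 CPM. Isl1, Rfx6 and Myt1, all factors of the endocrine lineage, were like Mlxipl and Pax6 highest in replicate 1 in CPM, while Nkx6-1, Pdx1 and Foxa2 were like Mafa lowest there. Foxa1 had 0 counts in every library, where Foxa2, its close relative, had 46.1, 61.6, 64.0 and 54.7 CPM. Bach2 was at 0.145 TPM.

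Of 11 genes listed as markers of progenitor cells, immature cells or beta cell heterogeneity, 5 were detected, all at low levels. The highest was Cfap126 (Flattop), which the study names as a marker of heterogeneity and not of immature cells, at 8.13 ± 3.20 TPM. Dlk1 was at 7.55 ± 3.42, Hes1 at 6.00 ± 1.78 and Myc at 4.09 ± 0.409 TPM. Pax4 and Sox9 had 0 counts in all 4 libraries, and Neurog3, Aldh1a3, Gast and Ptf1a were under 1 TPM.

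Messages of the other islet hormones were present. Gcg, glucagon, ranked 14th among coding genes with 197, 1373, 519 and 1023 TPM. Ppy, pancreatic polypeptide, ranked 20th with 266, 1013, 598 and 585 TPM. Both were lowest in replicate 1 and highest in replicate 2. Pyy was at 249 ± 88.3 TPM, Sst, somatostatin, at 13.7, 48.3, 6.45 and 21.3 TPM and Ghrl, ghrelin, at 0.442 TPM. All 5 together came to 0.769%, 1.32%, 0.929% and 0.890% of the insulin TPM. In CPM Gcg ran 229.6, 1149, 429 and 828, with a CV of 62.4%. The sum of the 5 hormones had a CV of 53.9% in CPM.

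Transcription factors of alpha and delta cells were near 0 beside these hormones. Irx1 had 0.0812, 0.742, 0.307 and 0 CPM and Pou3f4 0, 0.742, 0.307 and 0 CPM, and Irx2 was at 1.38 ± 0.740 TPM. Other members of the alpha list were higher, with Ttr at 172 ± 67.2, Slc7a2 at 62.4 ± 8.25 and Gc at 37.3 ± 18.4 TPM. Altogether 4 of 8 alpha markers were detected, with a summed level of 852 to 1912 CPM. Of the delta list Sst and Rbp4 were detected, at a sum of 6.95 to 33.0 CPM, while Hhex and Ghsr were under 1 TPM and Cckbr had 0 counts. The part of other islet cells in these hormone messages was not tested, and in bulk RNA fewer cells of a type and less RNA per cell cannot be told apart.

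Markers of cells outside the endocrine islet were at or near 0, except for part of the duct list. None of 12 acinar markers and none of 7 stromal markers was detected, and their sums reached at most 1.07 and 1.54 CPM in a library. Of 8 leukocyte markers only Cd68, a lysosomal gene, was detected, at 2.70 TPM, and Lyz2, Adgre1, Itgam and Cd3e had 0 counts. Of 6 endothelial markers only Esam was detected, at 3.25 TPM, while Pecam1, Cdh5, Kdr, Flt1 and Plvap were at or near 0. Of 7 duct markers 3 were detected, among them Spp1 at 129.8 ± 43.1 and Krt7 at 82.3 ± 19.4 TPM, but Cftr, Sox9 and Mmp7 had 0 counts and Krt19 had 0.731, 1.19, 0.307 and 1.07 CPM. No red cell haemoglobin gene of the list had a count, and Alas2 had 0.568, 0.148, 1.23 and 0.0892 CPM. Of 4 Schwann cell markers 1 was detected, and Sox10 and Gfap had 0 counts.

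**Figure D3:**
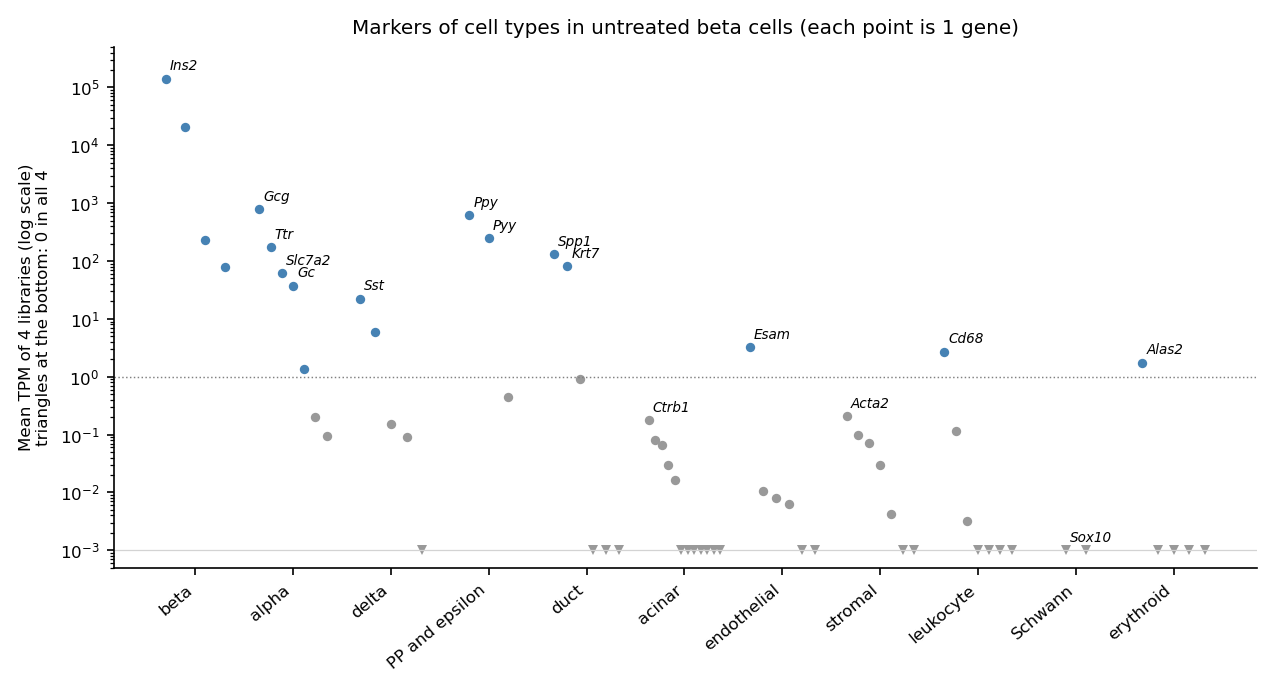
Mean TPM over the 4 untreated libraries (log scale) of the markers of 11 cell types, 1 point per gene, with a few genes left out. Blue points lie at 1 TPM or more, grey points below it, and triangles on the bottom line had 0 in all 4 libraries. All 4 beta cell markers lie above the line, and no acinar or stromal marker does.

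Genes of the unfolded protein response, which secretory cells use to fold large amounts of protein, were abundant, with 19 of 19 detected. The chaperones Hsp90b1 and Hspa5 (BiP) stood at 555 ± 196 and 438 ± 139.9 TPM, the disulfide isomerase Pdia3 at 336 ± 104 TPM and Calr at 282 ± 104 TPM. Of the stress factors, Atf4 was at 191 ± 59.9, Xbp1 at 186 ± 46.9 and Ddit3 (CHOP) at 36.1 ± 5.79 TPM. Their summed CPM was 4541, 7422, 5861 and 7104 in replicates 1 to 4, lowest in replicate 1. All but 2 of the 19 genes had their lowest value there, against 39.1% of 11362 nuclear coding genes. The exceptions were Txnip and Ddit3, which were highest there. Abundant coding genes in general were lower in replicate 1. On the log2 scale against the other libraries, the median was -0.29 for coding genes at 100 to 1000 TPM and -0.59 for the list.

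The spread between libraries was estimated next. The common biological coefficient of variation (BCV, the spread between libraries beyond counting error, from edgeR) was 0.299 over 13223 genes with enough counts. It was 0.193 without replicate 1 and 0.307 to 0.349 without any other single library. For nuclear protein-coding genes alone it was 0.219. Among the 8511 nuclear protein-coding genes at 10 CPM or more, the median CV was 15.1%, and 10.8% over replicates 2 to 4. For 62.9% of these genes the highest library was less than 1.5-fold above the lowest, for 8.28% it was more than 2-fold above it, and for 0.646% more than 4-fold. Across the 10417 detected coding genes, which are not independent replicates, log2 TPM had a Pearson correlation of 0.923 to 0.945 between replicate 1 and another library and of 0.964 to 0.971 between the others. In the same pairs 76 to 80 and 88 to 90 of the 100 most abundant coding genes were shared.

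The 10 genes at 10 CPM or more with the lowest BCV, 0.137 to 0.138, were Arid1b, Capn7, Ip6k1, Tcaf1, Chtop, Rpl10a, Ahi1, Snx27, Dctn4 and Trim33. For a single gene edgeR draws the BCV towards that of genes at a similar level, so these values are not the gene's own spread. Arid1b, a subunit of a chromatin remodelling complex, had 112, 109, 112 and 112 CPM, a CV of 1.51%. Capn7, a protease, had 119.6, 118, 119 and 122 CPM, a CV of 1.12%. Of 14 reference genes the most even was Ppia, cyclophilin A, with 247, 271, 249.6 and 248 CPM and a CV of 4.55%. Gapdh had 261, 322, 399 and 456 CPM, a CV of 23.8%. Actb, beta actin, had 329, 396, 402 and 512 CPM, a CV of 18.5%. Tbp, the TATA-binding protein, had 47.7, 24.0, 27.3 and 29.0 CPM, a CV of 33.4%. Gapdh and Actb were highest in replicate 4 and lowest in replicate 1, and Tbp was highest in replicate 1. The summed reference genes had 4327, 6012, 5493 and 6197 CPM.

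The 10 least even genes, with a BCV of 0.742 to 1.08, were Gm28439, Ifit3, Gm21887, Gm48889, Oas2, Gm43320, Gm43019, Gm49660, Gm43490 and Top2a. All but Gm28439 and Top2a were highest in replicate 1. Gm48889, Gm43320, Gm43019, Gm49660 and Gm43490 are transcribed regions that the annotation lists as still to be tested by experiment. Gm28439, a pseudogene on chromosome 1, ran 657, 551, 1.17 and 685 CPM and was near 0 in replicate 3 alone. Reads of a pseudogene can be shared with near-identical copies elsewhere in the genome, so its counts are uncertain.

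**Figure D4:**
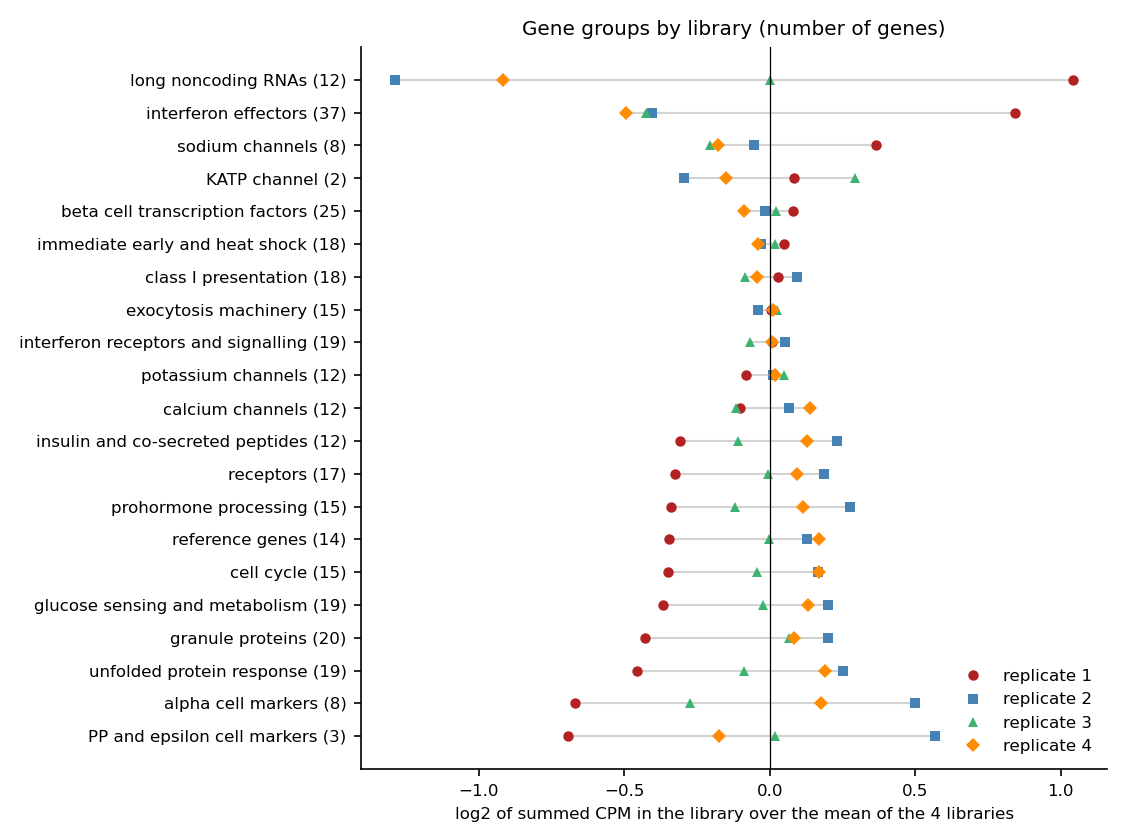
log2 of the summed CPM of 21 gene groups in each untreated library over the mean of the 4, with the number of genes of the group in parentheses and 1 symbol per library. Long noncoding RNAs and interferon effectors lie far to the right in replicate 1, secretory groups and the markers of other islet cells lie to the left of 0 in the same library, and the class I and exocytosis groups sit near 0 in all 4.

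Replicate 1 differed from the others in the classes of RNA it held. Long noncoding RNAs took 6.81% of its counts and 1.78%, 3.78% and 2.21% of those of replicates 2 to 4. The 5 most abundant by TPM were Rmrp, Malat1, Rian, Meg3 and Gm10076. Rmrp is short and leads in TPM only, with a mean of 691 CPM against 23137 CPM for Malat1. Malat1, an RNA of nuclear speckles, had 48339, 9101, 23027 and 12080.1 CPM. Meg3, an imprinted RNA, had 2518, 503, 1554 and 658 CPM. Neat1, the scaffold of nuclear paraspeckles, had 2687, 493, 1153 and 633 CPM. Kcnq1ot1, which stays at its own locus, followed the same order with 1459.6, 265, 627 and 342 CPM. In each of these replicate 1 was highest, replicate 3 was next and replicates 2 and 4 were lowest. Of 745 long noncoding genes with enough counts, 71.3% were highest in replicate 1, as were 95% of 696 genes listed as still to be tested, against 32.0% of 11362 nuclear coding genes.

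Of 15 mitochondrial genes with enough counts 14 were highest in replicate 1 in CPM, the exception being mt-Atp8, which was highest in replicate 3. The 10 most abundant by TPM were mt-Atp8, mt-Co1, mt-Atp6, mt-Rnr2, mt-Co3, mt-Nd4l, mt-Nd6, mt-Nd4, mt-Cytb and mt-Nd1. The first of them, mt-Atp8, is a short gene and leads in TPM only, with a mean of 551 CPM against 20219 CPM for mt-Co1. mt-Co1, a subunit of cytochrome oxidase, had 29769, 15580, 18460 and 17068 CPM. Among nuclear coding genes at 10 CPM or more, 205 (2.41%) were over 2-fold higher in replicate 1 than in the mean of the others and 59 were over 2-fold lower. Immediate early genes, which rise within minutes of a stimulus, were among the former: Fos had 128, 35.3, 62.2 and 26.9 CPM, Jun had 124, 50.8, 45.1 and 48.7 CPM and Egr1 had 333, 101, 220 and 111 CPM. The heat shock genes Hspa1a and Hspa1b, near copies of each other, were lowest in replicate 1, Hspa1a with 1.06, 4.97, 3.01 and 6.60 CPM. The sum of the 18 immediate early and heat shock genes, to which Hspa8 gives the most, was level, with 2121, 2008, 2078 and 1995 CPM.

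Untreated beta cells held the receptor and the signalling chain of interferon γ. Of 19 genes of interferon receptors and signalling 17 were detected. The chains of the receptor were low. Ifngr1, which binds the cytokine, had 5.73, 9.74, 10.9 and 9.41 TPM. Ifngr2, the accessory chain, had 1.92, 3.62, 2.60 and 3.25 TPM, below Ifngr1 in each library. The chains of the type I receptor, Ifnar1 and Ifnar2, stood at 12.4 ± 1.78 and 14.8 ± 6.88 TPM. Downstream of them, the kinase genes Jak1 and Jak2 were at 67.5 ± 8.40 and 13.3 ± 2.99 TPM. Irf1, a target and mediator of the pathway, had 23.6, 21.6, 25.5 and 21.1 TPM. Stat3, which other cytokines use too, was the highest of the list at 89.3 ± 13.6 TPM. The inhibitor Socs1 was at 0.275 TPM and Irf8, a factor of blood cells, at 0.0135 TPM. The summed CPM of the 19 genes was 1026, 1058, 973 and 1025, with no library apart, but single members were not all so even. Stat2, a signal carrier of the type I pathway, had 67.5, 20.5, 24.0 and 21.9 CPM. Irf7, itself induced by type I interferon, had 25.2, 9.95, 9.10 and 8.30 CPM. Both were highest in replicate 1, by more than 2 times the next library.

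Genes of class I antigen presentation, which show peptides of the cell's own proteins to CD8+ T cells, were on at rest. Of 18 genes 15 were detected. The heavy chain gene H2-K1 had 213, 354, 353 and 394 TPM. H2-D1, another heavy chain gene, had 54.8, 90.7, 90.9 and 82.2 TPM. Tapbp, tapasin, which loads peptides, had 61.5, 87.2, 86.1 and 94.6 TPM. These 3 genes were lowest in replicate 1 in TPM, while B2m, the light chain, was highest there with 219, 177, 145 and 172 TPM. The peptide transporter genes Tap1 and Tap2 were low, Tap2 at 5.15 ± 1.84 TPM, the proteasome gene Psmb8 at 9.47 ± 2.58 TPM and Nlrc5, the transactivator of class I genes, at 0.615 ± 0.466 TPM. Their summed CPM was 1161, 1217, 1075 and 1104, and replicate 1 lay within the others. Single members differed more, with B2m at 196, 113, 92.8 and 106 CPM and Nlrc5 at 8.85, 2.08, 1.41 and 1.16 CPM, both highest in replicate 1. Reads of the H2 genes can be shared among near copies, so the values of single heavy chain genes are uncertain. Class II genes were nearly silent, with 1 of 6 detected, H2-DMa at 3.96 ± 2.11 TPM, and with the transactivator Ciita at 0.191 TPM.

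The antiviral and chemokine effectors were low and split the libraries. Of 37 effector genes 21 were detected, and the highest was Ifi27, a mitochondrial protein, at 24.5 ± 5.33 TPM. Ifit3, which binds viral RNA together with its relatives, had 46.8, 1.93, 1.60 and 2.68 CPM in replicates 1 to 4. Ifit1, of the same family, had 57.7, 9.21, 7.68 and 13.9 CPM. Rsad2 (viperin), an antiviral enzyme, had 72.0, 8.02, 6.52 and 12.6 CPM. In all 3, replicate 1 was at least 4 times the next library. Oasl2, of the oligoadenylate synthetase family, had 64.0, 15.1, 15.1 and 15.3 CPM. Cxcl10, a chemokine for T cells, had 26.1, 3.49, 2.09 and 1.25 CPM. Gbp6, a guanylate-binding protein whose reads may be shared with its relatives, had 60.2, 18.5, 13.7 and 9.55 CPM. For these 3, replicate 1 was at least 3 times the next library. Of 25 effectors with enough counts 24 were highest in replicate 1, against 37.9% of all 13223 genes, and the sum over the list was 996, 419.9, 414 and 394 CPM. Ifi27 was the exception, highest in replicate 3 with 15.3, 14.4, 17.5 and 11.2 CPM. The libraries lay closer together for other members. Irgm1, a GTPase of cell-autonomous immunity, had 39.9, 26.5, 25.3 and 25.2 CPM. Dtx3l, a ubiquitin ligase, had 63.8, 55.0, 50.7 and 50.8 CPM. Cd274, which encodes PD-L1, had 26.2, 20.7, 15.4 and 20.3 CPM. Cxcl9, a chemokine that IFNγ induces, had 0 counts in all 4 libraries. Ifit2 had 14.4, 0.520, 0.246 and 0.981 CPM and Iigp1 had 8.04, 0.148, 0 and 0.535 CPM.

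These directions depend in part on the scale. In TPM the sum over the 61 class I, class II and effector genes was 1036, 1091, 1068 and 1089, a mean of 1071 ± 25.5 (SD, n = 4), and replicate 1 was 0.06 lower than the mean of the others on the log2 scale. In CPM it was 0.49 higher. The median coding gene was itself lower in replicate 1, by 0.07 in CPM and 0.53 in TPM, but higher by 0.21 in TPM over coding genes alone. Relative to that median, replicate 1 was higher by 0.56 in CPM, 0.47 in TPM and 0.46 in TPM over coding genes alone, and for the effectors by 1.36, 1.53 and 1.51. The mitochondrial share and the noncoding share moved with the same library, and their part in the result was not tested.

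Promoters of effectors that moved together are shown for Ifit1 (chr19:34640639-34640888, plus strand) and Ifit3 (chr19:34583279-34583528, plus strand), both chosen after their values were seen. Capitals mark TTTCNNTTT, letters of the interferon-stimulated response element that complexes of STAT and IRF proteins are known to bind.
Ifit1: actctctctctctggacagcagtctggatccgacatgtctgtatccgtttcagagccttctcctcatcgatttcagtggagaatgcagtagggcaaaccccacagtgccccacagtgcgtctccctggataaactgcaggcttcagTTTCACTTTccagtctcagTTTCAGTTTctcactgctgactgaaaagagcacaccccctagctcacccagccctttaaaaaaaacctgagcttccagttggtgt
Ifit3: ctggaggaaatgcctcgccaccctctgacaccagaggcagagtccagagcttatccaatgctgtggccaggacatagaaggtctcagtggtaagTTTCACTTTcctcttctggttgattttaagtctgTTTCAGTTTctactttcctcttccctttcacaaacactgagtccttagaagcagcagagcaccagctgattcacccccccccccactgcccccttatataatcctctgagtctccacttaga
It matched at 2 places in each window. Of the 37 effectors 28 have a promoter in the table and 19 of them (67.9%) hold the pattern on either strand, against 9.53% of all 27018 promoters, and 10 (35.7%) hold TTCNNNGAA against 7.18%. These matches describe letters in the window and do not show binding.

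**Figure D5:**
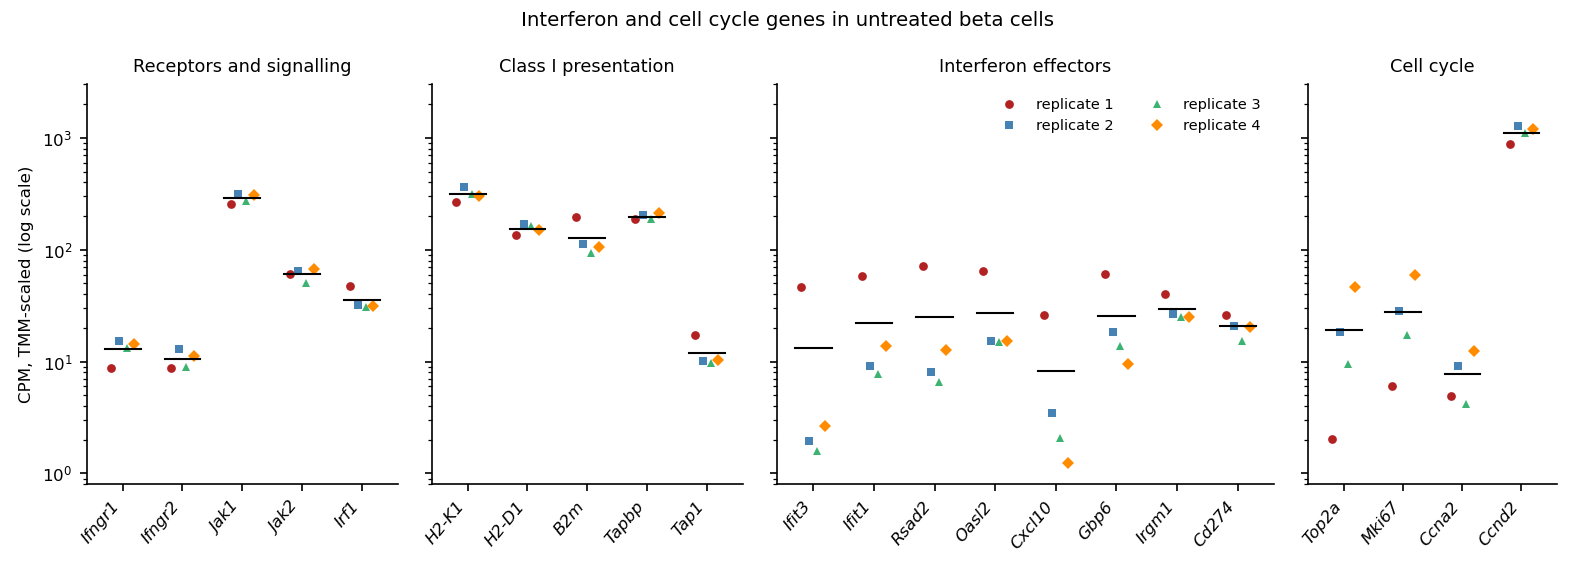
CPM after TMM scaling (log scale) of interferon and cell cycle genes, with 1 symbol per untreated library and a bar at the mean of the 4. Ifit3 is at 46.8 CPM in replicate 1 and at 1.60 to 2.68 CPM in the other libraries, while Irgm1, Cd274 and the class I genes differ far less, and Top2a and Mki67 are highest in replicate 4.

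Genes of dividing cells were low and followed another order. Of 15 cell cycle genes 10 were detected. Ccnd2, a D-type cyclin that beta cells need to divide, was by far the highest with 120.1, 248, 282 and 282 TPM, followed by its partner kinase Cdk4 at 64.7 ± 9.87 TPM. The kinase was even, with a CV of 3.76% in CPM. Top2a, a topoisomerase made in S and G2 phase, had 2.03, 18.3, 9.47 and 46.3 CPM. Mki67, which encodes Ki-67, had 6.01, 28.2, 17.2 and 59.3 CPM. Ccnb1, cyclin B1, had 0.244, 3.49, 0.492 and 8.74 CPM. All 3 were highest in replicate 4, next in replicate 2 and lowest in replicate 1, and neither Top2a nor Mki67 counted as detected because replicate 1 fell under 1 TPM. Without replicate 1 Top2a still ran from 9.47 to 46.3 CPM. Of the inhibitors, Cdkn1b (p27) was at 32.5 ± 5.75 TPM and Cdkn1a (p21) at 12.7 ± 5.42 TPM, and Cdkn2a, which encodes p16, was at 0.238 TPM.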

How the data were processed

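RNA was sequenced from sorted beta cells of islets in culture. Per the labels and the methods, 5 ng of RNA with an integrity number above 7 entered stranded libraries (NuGEN Ovation Solo, random primers, rRNA depleted after amplification), read as pairs of 75 bases on a NextSeq sequencer. From the submitters' processing notes and the methods, the authors aligned reads with STAR 2.5.2b to GRCm38.p6 (GenCode M23), and DESeq2 1.32.0 is named too. The deposited expected counts were estimated per gene and library with RSEM by the authors, so fractions of reads shared between genes were divided by the model. The deposited TPM values, also from RSEM, were used as an alternative. The RSEM version, the strand setting and any use of molecular identifiers are not given in the sources used here, so intervals cover counting error only.

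Groups came from the sample labels. TPM was recomputed by dividing each expected count by its effective length, for 55487 genes of which 55141 had a symbol in GENCODE M21, and again over 21884 nuclear protein-coding genes. Counts were rounded for edgeR 4.0.16 (R 4.3.3), with filterByExpr at a minimum count of 10, TMM scaling and no covariate, which gave CPM and the BCV. The BCV was also tested on simulated data without an outlying library, so that test does not cover a library like replicate 1. A count of 0 allows 3 counts, 0.184 to 0.268 CPM in a library. With totals of 10965898 to 15810817 counts, the mitochondrial share of a library is known within 0.0184 percentage points. No groups were compared. DESeq2 1.42.0 served as an alternative for the spread, and other steps used Python 3.11.15, numpy 2.4.6, pandas 2.3.3 and matplotlib 3.10.9. The members and gene lists were chosen with earlier results of these data known. The text names the 25 most abundant coding genes, the most abundant members of each list and those under 1 TPM, the 10 genes with the highest and the 10 with the lowest BCV among 8916 genes at 10 CPM or more, 10 mitochondrial genes and 5 long noncoding RNAs. Other genes, among them Il1r1, Peg3, Hadh and the list members named for their spread between libraries, were chosen after their values were seen. Of symbols with more than 1 identifier the one with the higher mean TPM was used. Promoter sequences are RefSeq's (GRCm38.p6). Alternatives were another unit or denominator, other scalings and filters, and leaving out each library. The libraries of treated islets were not used here. Some genes of the lists are counted but not reported here by name.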

Additional observations from a re-analysis of the deposited data

Results flagged for a closer look

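Each gene named above with a mean of 1 CPM or more, each gene list and each library measure was searched for a library far from the other 3, by the gap between the extreme library and its neighbour over the whole range (Dixon's ratio at the 95% limit for 4 samples). Of 290 items 34 passed. Chance gives about 1 in 20, but many of the genes were named after their spread was seen and the items are not independent, so the count cannot be read against that rate. In 23 of them replicate 1 was the highest library and in 5 it was the lowest.

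Among these were genes related to interferon. In replicate 1 the summed effectors stood at 996 CPM against 394 to 419.9 in the others. Single genes there were Ifit3 at 46.8, Ifit1 at 57.7, Ifit2 at 14.4, Rsad2 at 72.0, Oas2 at 38.5, Oasl2 at 64.0, Cxcl10 at 26.1, Iigp1 at 8.04, Irgm1 at 39.9, Stat2 at 67.5, Irf7 at 25.2, Irf1 at 47.5, Tap1 at 17.4 and Nlrc5 at 8.85 CPM. Their highest values in the other libraries were 2.68 for Ifit3, 15.3 for Oasl2, 31.9 for Irf1 and 10.3 CPM for Tap1. The genes were flagged on CPM only, and for Irf1 replicate 1 lay within the other libraries in TPM, as given above. The mitochondrial and noncoding shares were highest in the same library, and their part in these values was not tested.

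Other genes high in replicate 1 were Jun at 123.6 CPM, Rmrp, an RNA of the RNase MRP complex, at 1507 CPM, Gm21887 at 103.1, Gm43490 at 29.9 and Gm49660 at 28.5 CPM. The mitochondrial genes mt-Atp6 at 9979, mt-Nd4 at 16493 and mt-Nd6 at 3959 CPM were high there too. Genes low in replicate 1 were Kcnk16 at 92.9, Sstr3 at 103.2, Ffar1 at 177 and Atp2a3 at 623 CPM, and 291 coding genes reached 100 TPM in that library against 523 to 550 in the others. In replicate 2 Slc2a2 was highest at 1215 CPM and Ppia at 271 CPM, while Ifnar1 was lowest at 33.9 CPM and Arid1b at 108.5 CPM. In replicate 3 the number of coding genes at 0.1 TPM or more was highest, at 13474, and in replicate 4 Kcnma1 was lowest, at 186 CPM.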

How the results depend on the processing

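Over all alternatives of the summary values, 39 of 48 stayed within the spread between libraries or, for counts, within 1.5 times. Leaving out 1 of 4 libraries cannot move a mean by as much as its SD. Such alternatives of the insulin share, the interferon-induced genes and the other hormones were therefore bound to stay, and do not measure stability. Ranked by CPM, 13 of the 25 most abundant genes stayed, and 23 to 25 under the other alternatives. The insulin share was 31.9% of coding TPM and 5.29% of counts, and 14.6% to 19.1% of TPM when a library was left out. At 10 TPM 4909 coding genes were detected in all libraries, and 10458 to 10675 at 1 TPM when a library was left out. The BCV was 0.175 as the median gene-wise value of DESeq2, 0.193 to 0.349 when a library was left out (0.193 without replicate 1), 0.442 with no filter and 0.229 at a minimum count of 50, and other scalings gave 0.295 to 0.299. The 61 interferon-induced genes summed to 2273 in coding TPM and 1701 in CPM, and to 1065 to 1083 in TPM when a library was left out. The other islet hormones summed to 3189.9 in coding TPM, and to 1298 to 2019.6 in TPM when a library was left out. Replicate 1 over the mean of the others was 0.49 for the interferon-induced genes in CPM on the log2 scale, -0.0634 in TPM and 0.67 in coding TPM. It was -0.75, -1.29 and -0.53 for the insulins, -1.47, -1.75 and -0.98 for the other hormones, and 1.28, 1.00 and 1.72 for the effectors. The units in CPM, the values of replicate 1 over the others and the detection of list members without a library were added after seeing the data. No paired analysis was possible because the result comes from no test, with samples of 1 group only. What depth limits are genes near 3 counts in a library.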

Other observations

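Classes of short RNA that the report does not describe differed between libraries in TPM. Spliceosomal and other small nuclear RNAs took 12.9%, 5.05%, 6.72% and 4.93% of TPM in replicates 1 to 4, with the highest value in replicate 1, and small nucleolar RNAs 10.1%, 4.89%, 5.67% and 8.65%. In counts each class took less than 0.07% of a library. Annotated nuclear rRNA took 3.82%, 5.91%, 4.89% and 4.70% of counts, lowest in replicate 1.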
